A study of Mus musculus with 2 samples.

Results

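The 40 genes described here encode proteins that copy DNA or divide the chromosomes, and they were measured in 2 libraries of cultured mouse macrophages. They were chosen by symbol for their known roles, and all 40 were found among the 23444 gene symbols of the deposited tables. The first 20 act mainly in mitosis and the other 20 mainly at the start of DNA replication and during S phase. The cells were bone marrow derived macrophages of the inbred strain FVB, grown from marrow precursors. One library came from RON TK-/- mice, which lack the tyrosine kinase domain of the receptor RON (gene Mst1r), and the other from wild type (WT) mice. Both were labelled as treated for 72 hours with recombinant interleukin-4 at 10 ng/mL, a cytokine that drives alternative activation of macrophages. The sources used here give neither the age of the mice nor how many contributed to a library. With 1 library per group no test was possible, and every difference below is one between these 2 libraries, called the RON TK-/- and the WT library after their labels.

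A dividing cell first licenses its replication origins, by loading the MCM helicase with the help of CDC6 and CDT1. Cyclin E and the transcription factor E2F1 then start S phase, in which the clamp PCNA and a supply of deoxynucleotides serve the replication forks. Cyclin B with the kinase CDK1 starts mitosis, Polo and Aurora kinases build the spindle, and the anaphase promoting complex with CDC20 ends it. S phase genes are typically driven through E2F sites in their promoters, and mitosis genes through a CHR element bound by the MuvB complex, often beside CCAAT boxes bound by NF-Y. Macrophages grown from marrow can divide in culture, and the transcripts of both sets are commonly read as marks of dividing cells.

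The libraries stood apart in ways that bear on every value. Mst1r was listed at 0 FPKM (a level per length of transcript and per depth of library) in both, so it checked neither label. Arg1, an interleukin-4 induced enzyme, had 5041 FPKM in the RON TK-/- library and 1.005 in the WT library, although both labels state interleukin-4, and the inflammatory cytokine Tnf had 0.52 and 1262. Chil3 and Retnla, also induced by interleukin-4, had 4604 and 3665 FPKM in the RON TK-/- library and were listed at 0 in the WT library, while Nos2, an enzyme of inflammatory macrophages, had 3.63 and 1100. The WT library thus went against its treatment label, and whether treatment or library labels were wrong was not tested. Every ratio below rests on the labels as given, and genotype and activation state cannot be told apart. All 10 macrophage markers examined were detected, with sums of 6557 and 5838 FPKM. Markers of erythroid, mast, T and B cells were all under 1 FPKM, as were 9 of 10 markers of myeloid progenitors, among them Mpo and Elane at 0 in both. Of 7 neutrophil markers 2 were detected, with sums of 3.41 and 3.33 FPKM. Fibroblast markers were not absent, with 6 of 7 detected and sums of 918 and 700 FPKM, led by Col1a2 (433 and 407) and Col1a1 (250.01 and 195). Of these 6, Col3a1 (171 and 48.5 FPKM) and Pdgfra (24.3 and 8.93) passed 2-fold upward in the RON TK-/- library and 0 downward. Acta2 (26.1 and 31.5) had the opposite order. The median log2 ratio of the 6 was 0.48, against 0.57 for all detected genes, of which 25.6% passed 2-fold upward. The part of the fibroblast markers in the results was not tested. Which cells carried the division transcripts was not tested, and in bulk RNA fewer cells of a type and less RNA per cell cannot be told apart. Coverage implied about 6.19e+07 reads on genes in the RON TK-/- library and 5.42e+07 in the WT library.

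The promoters of the members differed between the mitosis and the S phase genes. RefSeq windows from 250 bases before to 50 after the start site (build GRCm38.p6) were at hand for 33 members, 16 of mitosis and 17 of S phase, and not for Tpx2, Kif20a, Ccna2, Aurkb, Mcm4, Ccne2 and Gins2. They were searched on both strands for CHR (TTTGAA or TTCGAA), E2F (TTTCCCGC, TTTCGCGC, TTTGCCGC or TTTGGCGC) and CCAAT, with overlapping matches counted. CHR letters stood in 12 of 16 mitosis promoters (75%) and 3 of 17 S phase promoters (17.6%), against 21.7% of all 27025 genes in the table and 16.3% of the 8513 of them detected here. E2F letters stood in 1 of 16 mitosis promoters, that of Cdk1, and in 8 of 17 S phase promoters (47.1%), against 2.60% of all genes and 4.77% of detected genes. Of those 8, Cdc6 and Uhrf1 held them in windows away from the start of the main transcript, as given below. CCAAT was common everywhere, in 14 of 16 mitosis and 10 of 17 S phase promoters and in 41.1% of all genes. A match describes letters in a window and not a bound site.

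The windows below show how these letters are arranged in mitosis genes that were abundant (Ube2c, Birc5) or had a large ratio between the libraries (Aurka, Plk1). Capitals mark CHR, E2F and CCAAT matches on either strand, and each window ends 50 bases after its start site.
Ube2c (chr2:164769679-164769978, plus strand): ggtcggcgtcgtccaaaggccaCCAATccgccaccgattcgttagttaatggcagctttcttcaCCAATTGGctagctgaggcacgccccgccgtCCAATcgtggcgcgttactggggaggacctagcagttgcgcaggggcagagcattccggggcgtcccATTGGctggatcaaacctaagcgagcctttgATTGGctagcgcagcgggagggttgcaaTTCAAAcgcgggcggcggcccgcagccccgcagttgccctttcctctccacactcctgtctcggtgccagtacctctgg
Birc5 (chr11:117848987-117849286, plus strand): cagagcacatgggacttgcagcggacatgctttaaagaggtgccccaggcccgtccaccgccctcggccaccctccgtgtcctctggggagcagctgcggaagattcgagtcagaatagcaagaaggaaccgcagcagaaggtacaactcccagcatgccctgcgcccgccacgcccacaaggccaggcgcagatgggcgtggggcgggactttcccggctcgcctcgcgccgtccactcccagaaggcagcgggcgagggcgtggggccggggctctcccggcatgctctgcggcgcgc
Aurka (chr2:172370521-172370820, minus strand): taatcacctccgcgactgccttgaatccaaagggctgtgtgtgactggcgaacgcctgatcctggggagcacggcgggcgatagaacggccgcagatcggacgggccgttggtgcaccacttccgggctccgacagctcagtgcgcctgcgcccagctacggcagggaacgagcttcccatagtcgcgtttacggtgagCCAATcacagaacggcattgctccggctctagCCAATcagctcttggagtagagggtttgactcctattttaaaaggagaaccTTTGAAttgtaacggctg
Plk1 (chr7:122159185-122159484, plus strand): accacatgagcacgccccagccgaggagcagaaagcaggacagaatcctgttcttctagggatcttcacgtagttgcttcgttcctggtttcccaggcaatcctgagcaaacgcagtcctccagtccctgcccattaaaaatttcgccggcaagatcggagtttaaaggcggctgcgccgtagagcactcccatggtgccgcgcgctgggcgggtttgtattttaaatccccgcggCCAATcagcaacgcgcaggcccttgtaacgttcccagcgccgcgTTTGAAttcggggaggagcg

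In Aurka and Plk1 the letters TTTGAA follow the start site of the RefSeq window, at positions 32 and 30, and CCAAT precedes it. The Aurka transcript in the files starts 64 bases further downstream, so that this match lies before the start of the transcript measured, while the Plk1 transcript starts 2 bases downstream. In Ube2c the CHR match lies on the other strand at position -29, downstream of 6 CCAAT matches. The Birc5 window holds none of the 3 motifs. Over the mitosis promoters 11 of 19 CHR matches began within 50 bases of the start, in 11 genes.

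The S phase windows were chosen in the same way for level (Pcna, Rrm2) and ratio (Ccne1, Cdc6), and Mcm6 was added, after its matches were seen, to show E2F letters.
Pcna (chr2:132253131-132253430, minus strand): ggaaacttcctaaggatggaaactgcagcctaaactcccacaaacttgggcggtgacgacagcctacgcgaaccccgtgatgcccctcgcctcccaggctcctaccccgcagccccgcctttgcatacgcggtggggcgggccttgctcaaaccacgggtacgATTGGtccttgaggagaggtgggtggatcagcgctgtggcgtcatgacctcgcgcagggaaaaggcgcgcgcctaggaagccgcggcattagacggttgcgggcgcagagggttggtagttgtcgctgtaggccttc
Rrm2 (chr12:24708004-24708303, plus strand): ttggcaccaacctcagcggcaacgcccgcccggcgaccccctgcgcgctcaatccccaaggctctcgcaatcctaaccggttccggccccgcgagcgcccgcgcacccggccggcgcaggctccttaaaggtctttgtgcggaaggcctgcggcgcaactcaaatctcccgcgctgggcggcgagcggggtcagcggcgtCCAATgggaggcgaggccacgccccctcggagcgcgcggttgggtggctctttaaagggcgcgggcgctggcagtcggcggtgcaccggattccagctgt
Ccne1 (chr7:38107441-38107740, minus strand): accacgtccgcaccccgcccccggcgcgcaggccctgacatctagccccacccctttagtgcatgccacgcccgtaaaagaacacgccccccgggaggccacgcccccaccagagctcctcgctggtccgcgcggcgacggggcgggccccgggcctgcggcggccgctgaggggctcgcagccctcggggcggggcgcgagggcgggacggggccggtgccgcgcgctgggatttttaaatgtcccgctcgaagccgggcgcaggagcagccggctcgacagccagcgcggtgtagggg
Cdc6 (chr11:98907901-98908200, plus strand): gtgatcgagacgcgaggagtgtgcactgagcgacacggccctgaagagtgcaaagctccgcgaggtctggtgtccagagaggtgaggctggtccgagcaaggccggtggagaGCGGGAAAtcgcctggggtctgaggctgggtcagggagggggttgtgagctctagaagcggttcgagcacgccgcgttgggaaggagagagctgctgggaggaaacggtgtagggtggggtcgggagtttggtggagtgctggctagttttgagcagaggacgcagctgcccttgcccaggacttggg
Mcm6 (chr1:128359656-128359955, minus strand): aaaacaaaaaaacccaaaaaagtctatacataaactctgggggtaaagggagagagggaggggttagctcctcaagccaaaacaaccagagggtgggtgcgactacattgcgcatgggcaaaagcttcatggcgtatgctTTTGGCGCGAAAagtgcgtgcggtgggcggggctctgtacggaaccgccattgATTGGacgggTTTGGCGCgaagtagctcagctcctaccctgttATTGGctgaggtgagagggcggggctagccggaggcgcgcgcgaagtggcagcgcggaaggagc

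Mcm6 carries 3 E2F matches, of which 2 overlap on opposite strands, and 2 CCAAT matches, and Cdc6 carries 1 E2F match. Pcna and Rrm2 hold CCAAT only, and Ccne1 holds none of the letters searched. The Cdc6 window belongs to a start downstream of that of the transcript which carried nearly all Cdc6 signal in the files (which begins at -262 relative to it), so it may not be the promoter in use. In all, 31 of 35 windows had their start within 100 bases of that of the main transcript in the files. The other 4 were of S phase genes, and that of Cdc6 was 1 of them. The main transcript began at -426 for E2f1, and at -596 and -976 for 1 of 2 windows of Mcm7 and Uhrf1. The only E2F match of Uhrf1 lay in that window. This match and the lack of one in E2f1 may thus not describe the promoters in use.

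**Figure D1:**
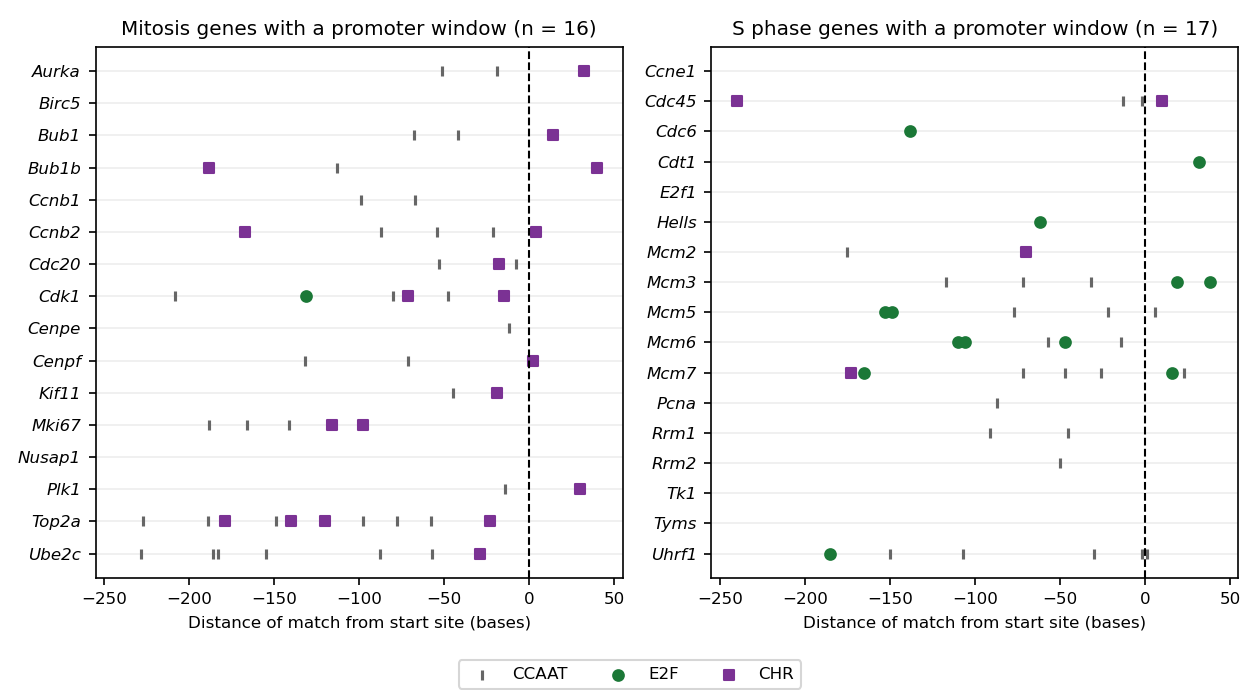
Motif matches in the promoter windows of 16 mitosis genes (left) and 17 S phase genes (right), as distance in bases from the start site (dashed line). Squares mark CHR, circles E2F and ticks CCAAT, and genes with 2 windows (Mcm7, Uhrf1) share a line. CHR squares cluster near the start of mitosis genes and E2F circles lie almost only among S phase genes.

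The members were mostly higher in the RON TK-/- library, and mitosis genes by more than S phase genes. The difference is given as the log2 ratio of FPKM + 1, RON TK-/- over WT. It was above 0 for 36 of 40 members, and the exceptions were Mki67, Mcm5, Pcna and Cdt1. Most detected genes were above 0 as well, with a lower quartile of 0.048, so this count is not particular to the members. All members reached 1 FPKM in a library and count as detected. Of the 20 mitosis genes 11 passed 2-fold upward in the RON TK-/- library and 0 passed it downward, and of the 20 S phase genes 7 and 0. Among all 11288 detected genes 25.6% passed 2-fold upward and 8.71% downward, so that 74.6% of the calls were upward, or 40.4% with the libraries scaled relative to each other by a factor of 1.58, which centres the ratios on 0. The median ratio was 1.10 for mitosis genes (range -0.54 to 2.01) and 0.74 for S phase genes (range -0.52 to 1.91), against 0.57 for all detected genes. The S phase median was thus 0.36 below the mitosis median, a difference that the design does not allow to be tested.

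Since most detected genes had ratios above 0, the members were also read relative to its median. On that footing 6 mitosis genes stayed at least 2-fold higher (Kif20a, Aurka, Plk1, Cdc20, Bub1b and Aurkb) and 1 was lower (Mki67). Of the S phase genes 1 was higher (Ccne1) and 1 lower (Cdt1). The shares of all detected genes were then 8.38% higher and 14.4% lower. On this footing 15 of 20 mitosis genes and 11 of 20 S phase genes were above the median. After the rescaling, 15 members had ratios below 0, 6 of mitosis and 9 of S phase.

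**Figure D2:**
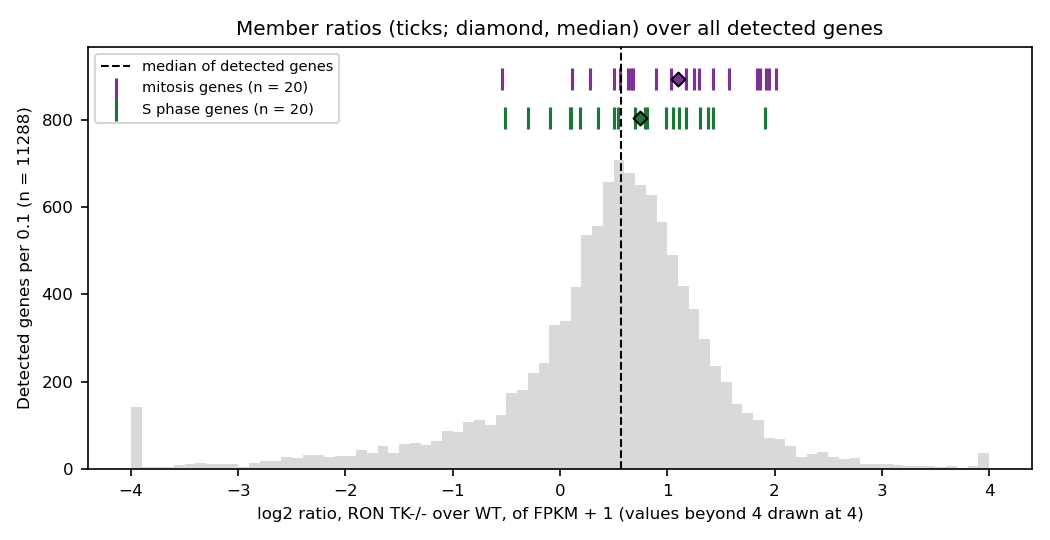
Distribution of the log2 ratio, RON TK-/- over WT, of FPKM + 1 over 11288 detected genes (grey histogram, dashed line at their median of 0.57), with a tick for each member and a diamond at each set's median. Mitosis ticks centre on 1.10 and S phase ticks on 0.74. To the right of the dashed line, which splits the detected genes evenly, lie 15 of 20 mitosis and 11 of 20 S phase ticks. Values beyond 4 are drawn at 4.

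The cyclins and kinase of mitotic entry were abundant in both libraries and 1.44 to 2.57 times as high in the RON TK-/- library. Ccnb1, which encodes the cyclin B1 that activates CDK1, had 33.3 FPKM in the RON TK-/- library and 13.0 in the WT library. Ccna2, the cyclin A2 of S phase and mitotic entry, had 28.2 and 11.3. Both passed 2-fold, with log2 ratios of 1.298 and 1.25. The kinase Cdk1 itself had 22.1 FPKM in the RON TK-/- library and 13.6 in the WT library, and the second B-type cyclin Ccnb2 had 24.0 and 16.6. Those 2 genes stayed within 2-fold, at 0.66 and 0.50, close to the median of all genes. The order of the B-type cyclins differed between the libraries: Ccnb1 was 1.39 times Ccnb2 in the RON TK-/- library and 0.78 times Ccnb2 in the WT library. Ratios of this kind, taken between genes of 1 library, do not depend on library scaling, and the pairs were picked after their values were seen.

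The mitotic kinases with their partner Birc5 had the highest median ratio of the mitosis roles (1.745). Aurka, the Aurora A kinase of the spindle poles, had 12.2 FPKM in the RON TK-/- library and 2.41 in the WT library. Plk1, the Polo-like kinase needed from mitotic entry to exit, had 13.4 and 2.82. Aurkb, the Aurora B kinase of the chromosomal passenger complex, had 12.4 and 3.50. All 3 were at levels of 12 to 14 FPKM in the RON TK-/- library and under 4 in the WT library, with log2 ratios of 1.95, 1.92 and 1.57. Birc5, the survivin subunit that works in the same complex as Aurora B, had 38.3 FPKM in the RON TK-/- library and 24.3 in the WT library, a ratio of 0.63. Aurkb stood at 0.32 of the Birc5 level in the RON TK-/- library and at 0.14 of it in the WT library.

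Genes of the spindle split. Kif20a, a kinesin of cytokinesis, had 12.8 FPKM in the RON TK-/- library and 2.41 in the WT library, and its log2 ratio of 2.01 was the highest of the 40, above 96.4% of detected genes. Kif11, the motor that pushes the spindle poles apart, had 8.75 and 2.62. Tpx2, the activator of Aurora A on the spindle, had 15.5 and 12.6, and Nusap1, which binds spindle microtubules, had 9.66 and 8.84. The kinesins passed 2-fold, while Tpx2 (0.28) and Nusap1 (0.12) lay below the median of all genes. In plain FPKM Tpx2 was thus 1.23 times and its partner gene Aurka 5.06 times as high in the RON TK-/- library.

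The spindle checkpoint and kinetochore genes were low in the WT library. Bub1b, which encodes the checkpoint protein BubR1, had 7.73 FPKM in the RON TK-/- library and 1.45 in the WT library. The checkpoint kinase gene Bub1 had 11.0 and 4.89. The kinetochore motor gene Cenpe had 5.64 and 2.57, and the kinetochore gene Cenpf 2.64 and 0.61. The ratios of Bub1b (1.83), Cenpf (1.18) and Bub1 (1.03) passed 2-fold on the scale of FPKM + 1, while Cenpe (0.90) did not. That scale understates low genes, and as plain FPKM Cenpe was 2.20 and Cenpf 4.33 times as high in the RON TK-/- library.

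At the end of mitosis the activator and the enzyme of the anaphase promoting complex differed. Cdc20, its activator, had 13.6 FPKM in the RON TK-/- library and 3.02 in the WT library, a log2 ratio of 1.86. Ube2c, the ubiquitin-conjugating enzyme that works with it, had 45.8 and 28.2, a ratio of 0.68. Cdc20 was at 0.30 of the Ube2c level in the RON TK-/- library and at 0.11 of it in the WT library. Both promoters hold CHR letters.

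The common proliferation markers ran against each other. Mki67, the gene of the Ki-67 protein that coats mitotic chromosomes, had 22.3 FPKM in the RON TK-/- library and 32.9 in the WT library. Top2a, the topoisomerase that untangles chromosomes before they part, had 30.7 and 20.5. Mki67 had the lowest log2 ratio of the 40 (-0.54), above that of 12.9% of detected genes, whereas Top2a (0.56) sat at their median. Top2a was 1.38 times Mki67 in the RON TK-/- library and 0.62 times Mki67 in the WT library, and Plk1 was 0.60 and 0.086 times Mki67. Mki67 ranked 11 of 40 members by level in the RON TK-/- library and 2 of 40 in the WT library.

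**Figure D3:**
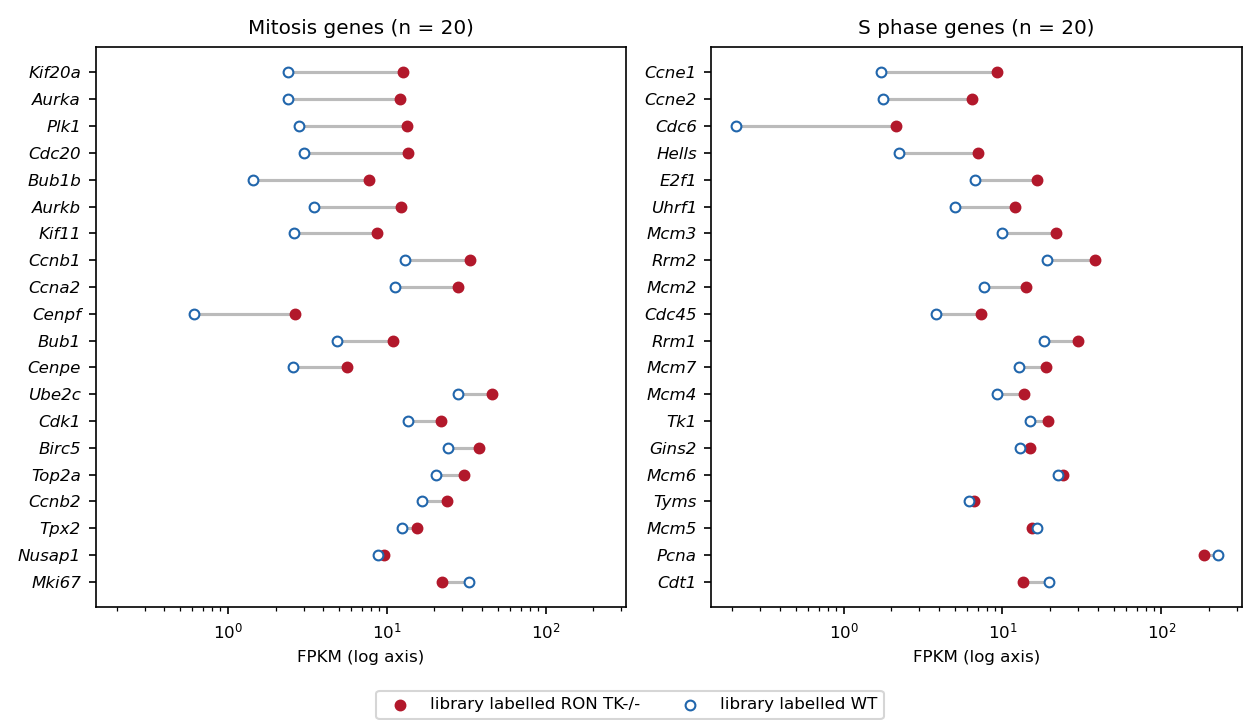
FPKM on a log axis of the 20 mitosis genes (left) and 20 S phase genes (right), with filled points for the library labelled RON TK-/- and open points for the library labelled WT, 1 library each, ordered by the log2 ratio of FPKM + 1. Filled points lie to the right for 36 genes, and Mki67, Mcm5, Pcna and Cdt1 are the 4 with the open point to the right.

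The 6 subunits of the MCM helicase, which form 1 ring in equal amounts as protein, were more even in the RON TK-/- library. Mcm6, Mcm3 and Mcm7 had 24.0, 21.7 and 18.9 FPKM in the RON TK-/- library, against 22.3, 9.93 and 12.7 in the WT library. Mcm5, Mcm2 and Mcm4 had 15.4, 14.1 and 13.6 in the RON TK-/- library, against 16.5, 7.60 and 9.26 in the WT library. Levels spanned 1.77-fold in the RON TK-/- library and 2.93-fold in the WT library, with Mcm6 the highest in both. Mcm3 alone passed 2-fold (1.05). Mcm5 (-0.09) and Mcm6 (0.10) were nearly level between the libraries, and so lay below the median of all genes (0.57). The median of the 6 was 0.52. Mcm3 was 1.40 times Mcm5 in the RON TK-/- library and 0.60 times Mcm5 in the WT library.

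The loading factors of that helicase lay at both ends of the S phase set in plain FPKM. Cdt1 had 13.4 FPKM in the RON TK-/- library and 19.6 in the WT library, a log2 ratio of -0.52, the lowest of the S phase genes. Cdc6 had 2.14 and 0.21, the lowest level of all 40 in each library. In plain FPKM Cdc6 was 10.2 times as high in the RON TK-/- library, the largest fold of any member, but its ratio on the scale of FPKM + 1 was 1.38. It rested on about 659 estimated reads in the RON TK-/- library and 56 in the WT library, with a 95% Clopper-Pearson interval of 2.97 to 3.78 for the log2 ratio of reads, which covers counting error only. Cdc45 and Gins2, which join the MCM ring to make it an active helicase, had 7.30 and 14.8 FPKM in the RON TK-/- library, against 3.80 and 12.9 in the WT library. Neither passed 2-fold (0.79 and 0.19).

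The cyclin E genes and E2f1 were each at least 2-fold higher in the RON TK-/- library. Ccne1 and Ccne2, the cyclin E genes whose proteins activate CDK2, had 9.25 and 6.45 FPKM in the RON TK-/- library, against 1.73 and 1.77 in the WT library. E2f1, which encodes a transcription factor of S phase genes, had 16.4 and 6.70. The log2 ratios were 1.91, 1.43 and 1.18. Ccne1 was above Ccne2 in the RON TK-/- library, and the 2 stood at about the same level in the WT library. Ccne1 was at 0.69 of the Cdt1 level in the RON TK-/- library and at 0.088 of it in the WT library.

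Pcna, the sliding clamp of the polymerases, was the most abundant member in both libraries and was not higher in the RON TK-/- library. It had 184 FPKM there and 227 in the WT library, a log2 ratio of -0.30. E2f1 was at 0.089 of the Pcna level in the RON TK-/- library and at 0.030 of it in the WT library. PCNA also serves DNA repair, so its transcript is not particular to S phase.

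Among the enzymes that supply deoxynucleotides none passed 2-fold on the scale of FPKM + 1. The large subunit of ribonucleotide reductase, Rrm1, had 30.0 FPKM in the RON TK-/- library and 18.1 in the WT library, and the small subunit Rrm2 had 38.4 and 18.9. Tk1, the thymidine kinase of nucleotide salvage, had 19.4 and 14.98, and the thymidylate synthase Tyms had 6.65 and 6.18. Rrm2 came closest to 2-fold (0.98), and in plain FPKM it was 2.03 times as high in the RON TK-/- library. Tk1 (0.35) and Tyms (0.09) lay below the median of all genes. Tyms was the single member whose counting interval for the log2 ratio of estimated reads spanned 0 (-0.06 to 0.15). For the other 39 the interval did not, but such intervals leave out the differences between cultures, which 1 library per group cannot show. The share of all detected genes with such an interval is not given here. Their median ratio was 0.57, so an interval without 0 is not particular to the members.

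Both chromatin factors of replication passed 2-fold. Uhrf1, which brings the maintenance DNA methyltransferase to newly copied DNA, had 12.0 FPKM in the RON TK-/- library and 5.03 in the WT library. Hells, a chromatin remodeller needed for DNA methylation, had 7.001 and 2.23. Their ratios, 1.11 and 1.31, were near those of E2f1 and Ccne2.

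Members with lower levels had larger ratios, and the sets differed in level. Of mitosis genes with a mean of under 10 FPKM over both libraries, 9 of 11 were at least 2-fold higher in the RON TK-/- library (median ratio 1.57), and of those with 10 FPKM or more 2 of 9 (0.63). For S phase genes the counts were 5 of 7 (1.31) and 2 of 13 (0.51). All detected genes showed the same order, with 32.1% of 5928 genes under 10 FPKM at least 2-fold higher (median 0.72) and 18.5% of 5360 genes from 10 FPKM (0.42). Mitosis genes held more low members, and within each level class the sets differed by less than in the pooled comparison. The part of level in the difference between the sets was not tested. Across the 40 members Spearman's rho of the levels in the 2 libraries was 0.87, and that of ratio with transcript length was 0.0084, as descriptions over genes that share libraries. Median transcript lengths were 2910 bases for mitosis and 2894 for S phase genes. Estimated reads on all members made up 0.237% of the RON TK-/- library and 0.176% of the WT library.

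Some members lie near each other. On chromosome 11 of build mm10, Cdc6 (98907889 to 98923942) lies in the same region as Top2a (98992947 to 99024189), and their ratios were 1.38 and 0.56. Also on chromosome 11, Tk1 (117815519 to 117826014) and Birc5 (117849237 to 117855743) lie near each other, with ratios of 0.35 and 0.63.

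For 11 members the files listed several RefSeq transcripts. In Tk1, Kif20a, Cdc6, Birc5, Nusap1 and Tyms a single transcript held over 90% of the FPKM in both libraries, with 97.1% of Birc5 in the RON TK-/- library and 97.8% in the WT library on NM_009689. Shares differed more in Bub1, Tpx2, Cdc45, Ccne2 and Uhrf1. Bub1 had 80.9% of its FPKM on NM_009772 in the RON TK-/- library and 30.9% in the WT library, with the rest on NM_001113179, of 4337 bases against 4334. The Tpx2 transcript NM_028109 had 5.21 FPKM in the RON TK-/- library and 0.76 in the WT library, while the other 4 had 2.04 to 3.74 and 2.10 to 3.73. Cdc45 had 92.4% on NM_009862 in the RON TK-/- library and 54.1% in the WT library, and Uhrf1 had 79.6% and 54.5% on NM_010931. These transcripts overlap over most of their length, and with single reads of 50 bases the split rests on few reads that tell them apart. The levels and ratios above therefore use only the gene sums. For genes with several transcripts, the main transcript set against the promoter windows was picked by this split.

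**Figure D4:**
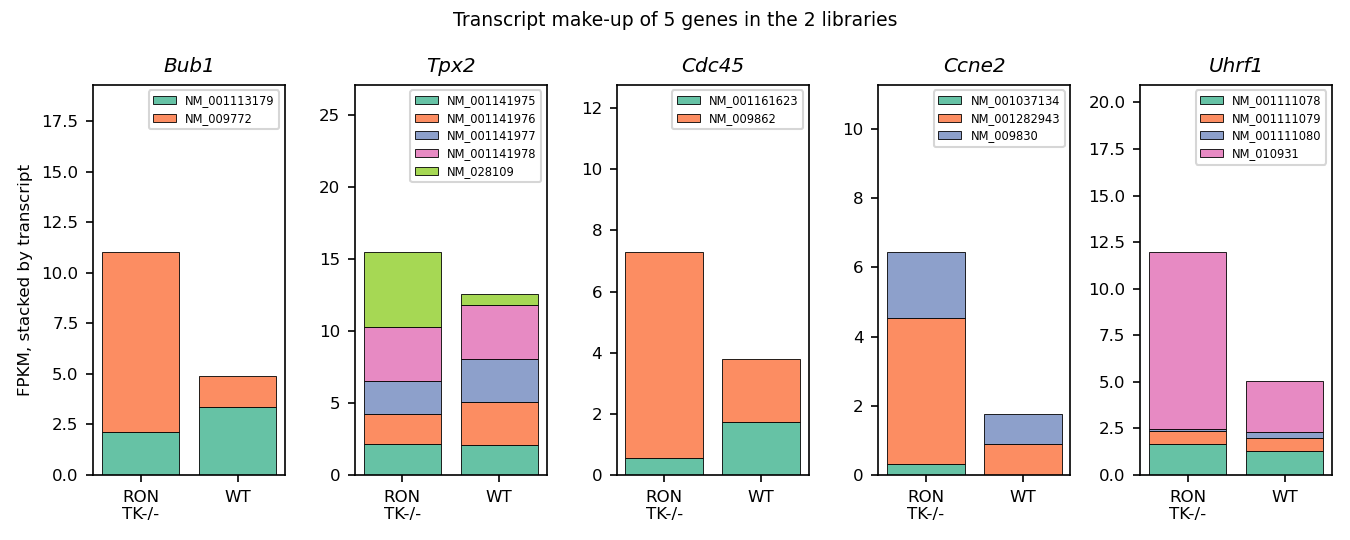
FPKM stacked by RefSeq transcript for 5 members in the library labelled RON TK-/- (left bar) and the library labelled WT (right bar), each on its own linear axis from 0. In Bub1 the larger part is NM_009772 in the left bar and NM_001113179 in the right, while the Tpx2 bars are of similar height (15.5 and 12.6 FPKM) with different parts.

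Other genes of the cell cycle were read from 18 lists that hold 202 genes besides the members. Of the 200 detected, 86 (43.0%) passed 2-fold upward in the RON TK-/- library and 3 downward, with a median ratio of 0.91, against 25.6% and 8.71% of all genes. Relative to the median of all genes 22 of the 200 were higher and 8 lower, against 8.38% and 14.4% of all detected genes. The counts below cover the whole lists, members included, and the genes named are the other genes with the most distant ratios. They stand against 25.6% upward, 8.71% downward and a median of 0.57 over all detected genes. In several lists, such as clamp and lagging strand, the upward share lay near that of all detected genes.

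The cytokinesis, spindle and passenger lists had the highest medians. In the list of mitotic kinesins and spindle genes 19 of 23 passed 2-fold upward and 0 downward (median 1.21). The cytokinesis kinesin Kif23 had 13.3 FPKM in the RON TK-/- library and 2.12 in the WT library, Kif22 had 11.4 and 2.85, and the centromere kinesin Kif2c 7.87 and 1.85. In the cytokinesis list 5 of 8 were higher and 0 lower (median 1.27), with Cep55 at 12.3 and 2.56 FPKM and the scaffold Anln at 17.2 and 3.92. The chromosomal passenger list had 4 of 5 higher (1.18), with Incenp at 18.1 and 8.22, Cdca8 at 24.7 and 10.1 and the centromere guardian Sgol1 at 2.36 and 0.48. Of these passenger genes Birc5 was the one within 2-fold.

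The spindle checkpoint and kinetochore list had 13 of 27 genes higher and 0 lower (median 0.93). The checkpoint kinase gene Ttk had 5.49 FPKM in the RON TK-/- library and 1.37 in the WT library, and Ndc80, which holds microtubules at the kinetochore, had 10.3 and 3.13, while the centromere gene Cenpm had 1.64 and 2.43. In mitotic entry 6 of 14 were higher (0.91), led by the phosphatase Cdc25b at 17.4 and 3.24 FPKM, with Gtse1 at 6.00 and 1.32 and the Aurora A cofactor Bora at 3.70 and 0.60. In the anaphase promoting complex list 6 of 19 were higher (0.61). Its inhibitor gene Fbxo5 had 7.57 FPKM in the RON TK-/- library and 0.80 in the WT library, the core subunit Cdc23 10.4 and 1.69, and the separase Espl1 3.20 and 0.54. Condensin and chromosome structure had 3 of 11 higher (0.85), all of them condensin subunits, with Ncaph at 10.2 and 3.602, Ncapg at 8.89 and 3.36 and Ncapd3 at 5.35 and 1.49. Cohesin had 4 of 13 higher (0.68), with Smc3 at 10.5 and 2.77 and the acetyltransferase Esco2 at 3.86 and 0.41, against Stag2 at 16.2 and 25.9. None of these lists held a gene at least 2-fold lower.

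The replication lists were mixed. Origin firing and the helicase had 7 of 13 higher and 0 lower (median 1.14), with the kinase subunits Dbf4 at 12.0 FPKM in the RON TK-/- library and 3.25 in the WT library and Cdc7 at 2.97 and 0.47, and Gins3 at 2.91 and 0.52. Origin licensing had 6 of 17 higher (0.58), with Gmnn, the geminin that blocks CDT1, at 24.1 and 5.59, and the origin recognition subunits Orc5 at 10.7 and 2.05 and Orc2 at 9.72 and 2.84. The log2 ratio of Gmnn was 1.93, and that of Cdt1 was -0.52. Replicative polymerases had 4 of 12 higher (0.54), with Pole2 at 7.10 and 1.41 and Pold4 at 27.9 and 8.92, against Pola2 at 10.3 and 14.3. The clamp and lagging strand list had 4 of 16 higher (0.63), with the clamp loader Rfc1 at 13.0 and 3.22 and the nuclease Dna2 at 3.15 and 0.28, against Rnaseh2b at 12.0 and 15.3. Replication-coupled chromatin had 6 of 11 higher (1.11), with Chaf1a at 6.78 and 1.79 and the histone mRNA binding gene Slbp at 22.9 and 8.38, against the histone chaperone Asf1a at 3.90 and 5.02.

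In these lists the genes at least 2-fold lower in the RON TK-/- library were Samhd1, Cdk6 and Cdkn1a. Samhd1, the enzyme that degrades deoxynucleotides, had 68.1 FPKM in the RON TK-/- library and 383 in the WT library, a log2 ratio of -2.47. In the same list Dut, which removes dUTP, had 25.7 and 4.03, and 4 of 15 genes were higher and 1 lower (median 0.91). Cdk6, a kinase of the G1 phase, had 5.49 and 19.97 and its partner cyclin Ccnd2 18.4 and 35.3, while Skp2, which marks a CDK inhibitor for degradation, had 5.41 and 0.70, and 6 of 12 in that list were higher and 1 lower (1.10). Cdkn1a, the p21 inhibitor of cyclin-dependent kinases, had 142 FPKM in the RON TK-/- library and 507 in the WT library. The inhibitors Cdkn2c (19.9 and 7.06) and Cdkn2b (14.2 and 5.86) had the opposite order, and 3 of 6 detected inhibitors were higher and 1 lower (0.98).

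Regulators of the 2 promoter classes were also read. In the E2F and RB list 4 of 13 were higher and 0 lower (median 0.82), with the activator E2f2 at 3.15 FPKM in the RON TK-/- library and 0.086 in the WT library. The pocket protein Rbl1 had 10.2 and 17.6 and E2f5, an E2F that acts with such proteins, had 5.62 and 10.4. In the list of MuvB, MYB and FOXM1, which act on CHR promoters, 2 of 8 were higher and 0 lower (0.62). That upward share and median were close to the 25.6% and 0.57 of all detected genes. Foxm1 had 8.55 and 2.91 and the MuvB subunit Lin52 4.30 and 1.38, while Rbbp4, shared with other chromatin complexes, had 31.5 and 29.0.

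**Figure D5:**
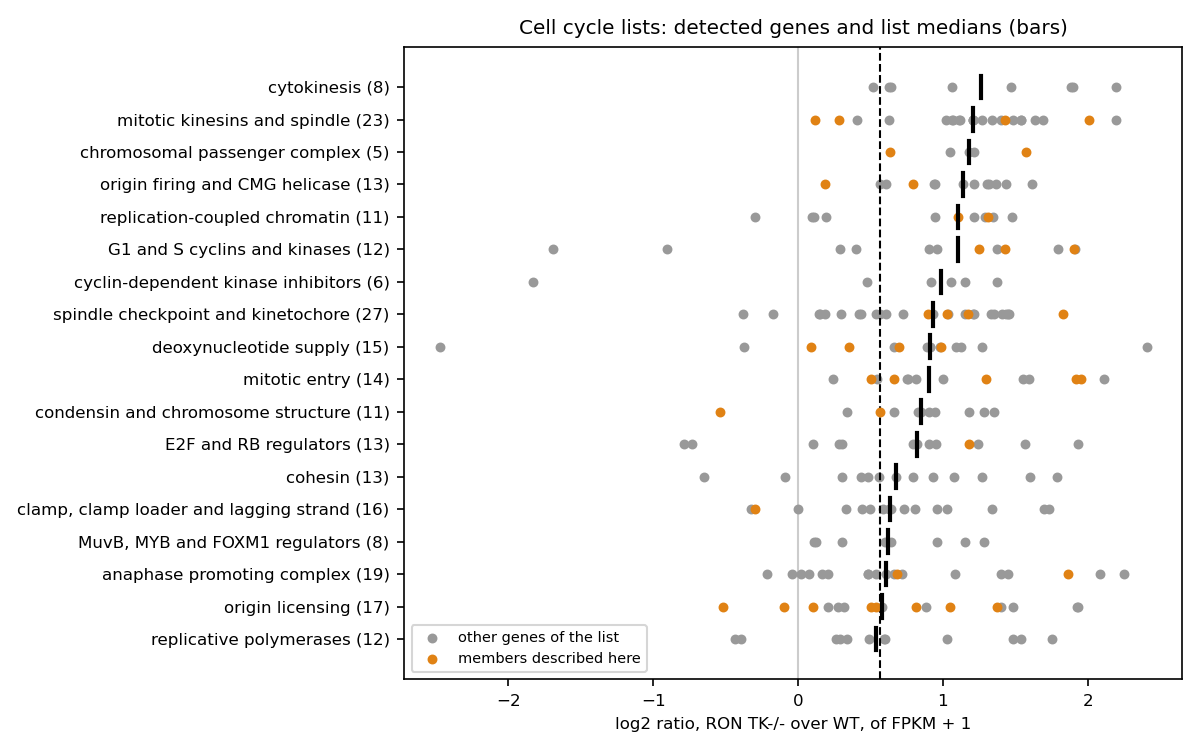
Log2 ratio, RON TK-/- over WT, of FPKM + 1 for each detected gene of 18 cell cycle lists (grey points; orange for the members), with the list median as a bar, the median of all detected genes (0.57) as a dashed line and the number of detected genes in brackets. Cytokinesis (1.27) and spindle lists (1.21) have the highest medians and replicative polymerases (0.54) the lowest.

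Ratios were also read by the letters in the promoter within each set. Among mitosis genes the median ratio was 1.10 for the 12 with CHR letters (range -0.54 to 1.95) and 0.77 for the 4 without (range 0.12 to 1.298). Among S phase genes it was 0.80 for the 8 with E2F letters (range -0.52 to 1.38) and 0.79 for the 9 without (range -0.30 to 1.91). Cdc6 and Uhrf1 (with) and E2f1 (without) were classed here by windows that start over 100 bases from the main transcript. For CCAAT the median was 1.10 in the 14 mitosis genes with it and 0.37 in the 2 without, Birc5 and Nusap1, and 0.74 in the 10 S phase genes with it and 1.18 in the 7 without. The ranges overlap in each of these pairs. Mki67, with the lowest ratio of all members, holds CHR and CCAAT letters, as do Aurka and Plk1, but not in the same places. Its CHR matches lie at positions -116 and -98, and those of Aurka and Plk1 at 32 and 30. Cdt1 and Cdc6 both hold E2F letters and stood at -0.52 and 1.38.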

How the data were processed

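The values are FPKM per RefSeq transcript, which the authors deposited as 1 table for each library, with the transcript, gene, locus, length and coverage beside it, per the file headers. The deposited coverage signal was read as the mean read depth per base of a transcript. Per the labels' protocols, TRIZOL-extracted total RNA went into TruSeq libraries, read from 1 end over 50 bases. The submitters' processing notes name build mm10 and DESeq, without a role. The sources used here do not give the aligner, annotation release or use of strand, and overlapping genes cannot be told apart.

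FPKM was summed per gene symbol over 31580 rows. The ratio was log2 of (FPKM + 1), RON TK-/- over WT. A gene counted as detected from 1 FPKM in either library, and 2-fold was the threshold. Reads were estimated as coverage times length over 50, and counting intervals used scipy 1.17.1. Python 3.11.15, pandas 2.3.3 and matplotlib 3.10.9 were used, and the ratio code was checked on simulated data. All 40 members are named. From each of 18 lists, up to 3 detected other genes with the ratio farthest from the median of all genes are named, except 1 that is not reported here. Promoter windows and their coordinates are from RefSeq, build GRCm38.p6. The members and lists were chosen with earlier results of these data known. With 1 library per group no replicate was left out and nothing was tested.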

Additional observations from a re-analysis of the deposited data

How the results depend on the processing

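The mitosis median stayed above the S phase median under every setting tried, and the size of both moved. The values in this order are the S phase median, the mitosis median and their difference. They were 0.80, 1.24 and -0.433 with a pseudocount of 0.1, and 0.47, 0.66 and -0.19 with a pseudocount of 5. With a minimum of 5 FPKM they were 0.70, 1.03 and -0.335, after median rescaling (by a factor of 1.58 between the libraries) they were 0.14, 0.54 and -0.40, and with TPM they were 0.72, 1.14 and -0.414. With the most abundant transcript only they were 0.755, 1.21 and -0.46, and with estimated reads 0.73, 1.12 and -0.39. Without a pseudocount, a setting added after seeing the data, they were 0.81, 1.25 and -0.44. Without Ccne1, Ccne2, E2f1, Cdc6 and Cdt1, of which Cdt1 was lower in the RON TK-/- library, the difference was -0.57. After median rescaling 15 members had ratios below 0, 9 of S phase and 6 of mitosis, against 4 as deposited. The setting without a minimum changed no value of a member.

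Counts of members depended on scale. At least 2-fold higher were 1 S phase and 7 mitosis genes with a pseudocount of 5, and 2 and 6 after median rescaling, when 1 gene of each set was lower. A threshold of 1.5-fold gave 11 S phase and 15 mitosis genes, and 4-fold gave 0 S phase genes and 1 mitosis gene. Over all 11288 detected genes 983 were higher with a pseudocount of 5, and 1097 higher and 1619 lower after median rescaling. At 1.5-fold 5519 of the 11288 were higher, and at 4-fold 419 were higher and 463 lower. Higher genes were 74.6% of all calls as deposited, 58.7% with a pseudocount of 5, 40.4% after median rescaling and 47.5% at 4-fold. These shifts follow from the settings themselves. No paired analysis was possible because each group has 1 library. Cdc6 and Cenpf, under 1 FPKM in the WT library, had the lowest levels of the members.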
